A study of Mus musculus with 12 samples.

Results

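The genes described here are 9 mouse genes listed as reported or candidate targets of miR-483-3p: Api5, Smad4, Bbc3, Ctnnbip1, Pard3, Mapkapk2, Mki67, Yap1 and Mapk3. They are 9 of the 55401 genes in the count table, and all 9 were among the 13205 genes that passed the filter on low counts. The genes were chosen by name, with their difference in counts between the genotypes in these same libraries already known, so that difference is described for each gene and is not tested again over the list. The list was to be read with the presence of a seed match, without selecting on it, and the spread among livers of one genotype was not used.

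RNA was sequenced from whole livers of 12 female mice aged 15 weeks, 6 per group. The iTgMir483 mice carried 1 copy of an inducible Mir483 transgene at the Rosa26 locus. It was repressed by doxycycline during pregnancy and released when the drug was withdrawn at birth. The study reports that the drug rescued fetal lethality fully and fetal growth restriction in part. A Neo cassette that blocks the transgene had been removed in the mice by a Cre recombinase. The controls were littermates, labelled only as control. Rosa26 is transcribed in nearly every cell type, and the transgene drives Mir483 far above its normal postnatal level, so the model is neither restricted to hepatocytes nor physiological in dose. In bulk tissue, fewer cells of a type and less RNA per cell cannot be told apart.

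A microRNA guides the silencing complex to messenger RNAs through its seed, bases 2 to 8 counted from its 5′ end. The seed pairs most effectively with complementary bases in the 3′ untranslated region (UTR), and the bound transcript is destabilised or translated less. Mir483 lies within Igf2, and both genes are active in fetal liver. RNA-seq reads only the transcript level, so an effect on translation alone would not be seen. The listed genes work in cell survival (Api5, an inhibitor of apoptosis, and Bbc3, which encodes the pro-apoptotic BH3-only protein PUMA), in TGF-beta signalling (Smad4, the Smad shared by the TGF-beta and BMP branches) and in beta-catenin signalling (Ctnnbip1, which keeps beta-catenin from TCF factors). Pard3 encodes a cell polarity scaffold, Mapkapk2 the kinase MK2 downstream of p38, Mapk3 the kinase ERK1, Yap1 the transcriptional co-activator of the Hippo pathway, and Mki67 the proliferation antigen Ki-67.

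The mature sequences show what a target must match. Both are on chromosome 7 of GRCm38, minus strand, from 142654932 to 142654952 for miR-483-3p and from 142654968 to 142654989 for miR-483-5p (RefSeq, GRCm38.p6). They are written 5′ to 3′ with the seed in capitals.
miR-483-3p: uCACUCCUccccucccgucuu
miR-483-5p: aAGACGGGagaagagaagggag
A 6mer match to miR-483-3p is GGAGTG in the transcript, a 7mer-m8 match is AGGAGTG, a 7mer-A1 match is GGAGTGA and an 8mer match is AGGAGTGA. For miR-483-5p the 6mer match is CCGTCT, the 7mer-m8 match is CCCGTCT, the 7mer-A1 match is CCGTCTA and the 8mer match is CCCGTCTA. Only the transcribed strand was searched, and a longer match was counted in its longest class only.

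In the longest annotated 3′ UTR of each gene, only Api5 and Ctnnbip1 among the 9 had a match to miR-483-3p. Each had 1 7mer-m8 match and 3 matches in all. The windows below are the 21 bases of the transcript, 5′ to 3′, that would lie opposite the whole microRNA, with the matched bases in capitals. They are shown because these are the only listed genes with a canonical match where such matches act most strongly.
Api5 7mer-m8: accagggctacccAGGAGTGt
Api5 6mer at base 1216: gacgggaggttcgtGGAGTGt
Api5 6mer at base 1546: gtcagcttgcctatGGAGTGc
Ctnnbip1 7mer-m8: ccatgctaagtacAGGAGTGt
Ctnnbip1 7mer-A1: ccatgccttccctgGGAGTGA
Ctnnbip1 6mer: ctcccgtgtggcagGGAGTGt
The Api5 matches lie in its last exon, exon 14 of 14 (chromosome 2, minus strand, GRCm38). The 7mer-m8 is at 94412687 to 94412693, starting at base 1066 of a 3′ UTR of 2077 bases, and the 6mers are at 94412538 to 94412543 and 94412208 to 94412213. The Ctnnbip1 matches lie in exon 5 of 5 (chromosome 4, plus strand), with the 7mer-m8 at 149565255 to 149565261, the 7mer-A1 at 149565720 to 149565726 and the 6mer at 149565825 to 149565830. The Ctnnbip1 7mer-m8 starts at base 992 of a 3′ UTR of 2174 bases, and these matches are in 1 of its 2 coding transcripts. The 30 bases on each side of the 7mer-m8 were 58.3% A or U in Api5 and 38.3% in Ctnnbip1.

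**Figure D1:**
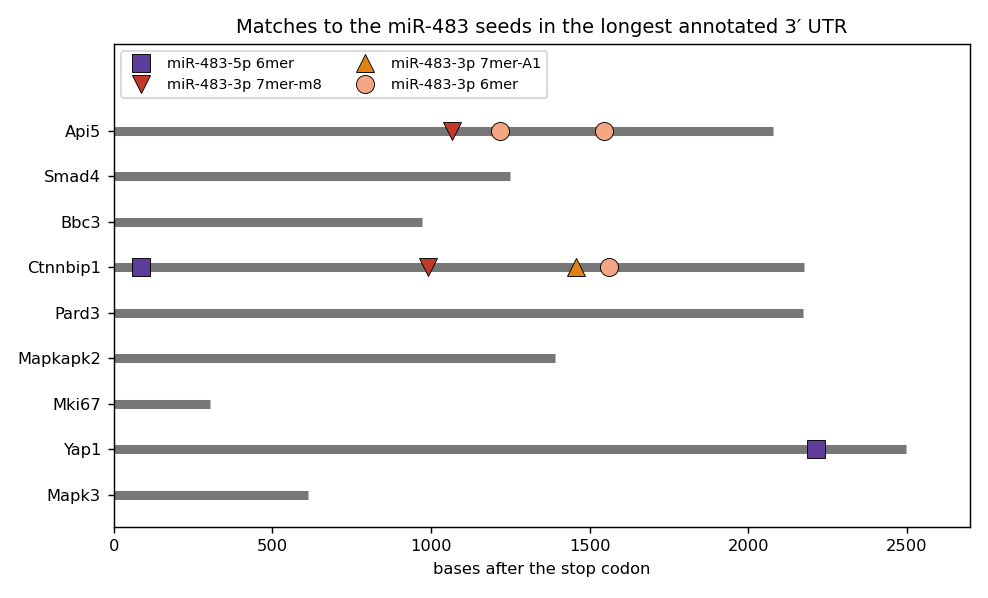
Matches to the miR-483 seeds along the longest annotated 3′ UTR of each listed gene, drawn to scale in bases after the stop codon (horizontal axis). Red and orange triangles and pale circles mark miR-483-3p matches, purple squares mark miR-483-5p matches, and the grey bar is the length of the UTR. Api5 and Ctnnbip1 carry 3 miR-483-3p matches each and the other 7 genes carry none.

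The other 7 genes had no miR-483-3p match in this UTR. The Pard3 UTR of another transcript held a 6mer. No listed gene had an 8mer in its 3′ UTR. None had a 7mer or 8mer match to miR-483-5p there, and Ctnnbip1 and Yap1 had 1 6mer each. The Mki67 3′ UTR was only 305 bases long and held no match to either arm. A 7mer or 8mer match to miR-483-3p is common: 2134 of the 12098 tested genes with an annotated 3′ UTR (17.6%) had one, beside 2 of the 9 listed genes.

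Outside the 3′ UTR, 7mer-m8 matches lay in the coding sequences of Smad4, Bbc3 and Pard3 and in the 5′ UTRs of Yap1 and Mapk3. They are shown because they are the longest miR-483-3p matches found in these genes. Coding sequences and 5′ UTRs were searched only in the transcript with the longest 3′ UTR. For Pard3 this is 1 of 12 coding transcripts with a 3′ UTR, and its coding sequence is 1821 bases long. Matches in other transcripts would be missed.
Bbc3 coding: cgtgtggaggaggAGGAGTGg
Pard3 coding: ctgtgtggccaacAGGAGTGt
Yap1 5′ UTR: gcggcctcgggcaAGGAGTGc
Mapk3 5′ UTR: ggggggaggcgggAGGAGTGg
The matched bases are at 16313744 to 16313750 on chromosome 7 (plus strand) in Bbc3, in exon 3 of 4, and at 127371653 to 127371659 on chromosome 8 (plus strand) in Pard3, in exon 7 of 14. Those of Yap1 are at 8004466 to 8004472 on chromosome 9 (minus strand) and those of Mapk3 at 126759636 to 126759642 on chromosome 7 (plus strand), both in exon 1 of 9. The Smad4 match lies in exon 10 of 12. Smad4 also had a 7mer-m8 match to miR-483-5p in its coding sequence, in exon 3. Among tested genes, 23.0% had a 7mer or 8mer match to miR-483-3p in the coding sequence. Mapkapk2 had 2 coding 6mers.

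The over-expressed gene was read first, because it checks the labels. All 6 control libraries were at 0 counts for Mir483, and the iTgMir483 libraries had 318 to 761 counts, or 23.3 to 54.31 CPM (counts scaled to a common library size). These counts come from poly(A) libraries and are not a measure of the mature microRNAs. Library totals were 12244123 to 30431286 counts for the controls and 12415140 to 15846175 for the iTgMir483 livers. Across the transcriptome, 1470 of 13205 genes (11.1%) were called different in edgeR's quasi-likelihood test, which took an adjusted p (Benjamini-Hochberg) below 0.05 and more than a 1.5-fold change, 8.41% being higher and 2.73% lower in the iTgMir483 group. The number past the adjusted p alone was 2457 (18.6%, with 11.3% higher and 7.33% lower), and 1046 genes (7.92%, with 5.09% higher and 2.83% lower) had groups that did not overlap.

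Of the 9 genes, 2 passed both thresholds: Api5 fell and Mki67 rose. Mapk3 passed the adjusted p but with a fold under 1.5, and the other 6 passed neither. The groups did not overlap for Api5, Mki67 and Mapk3. The median log2 fold change of the 9 genes was -0.03, beside 0.01 over all tested genes, and the median size of the change was 0.25, beside 0.22. Since the list was drawn up with this contrast known, nothing is read from these counts.

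**Figure D2:**
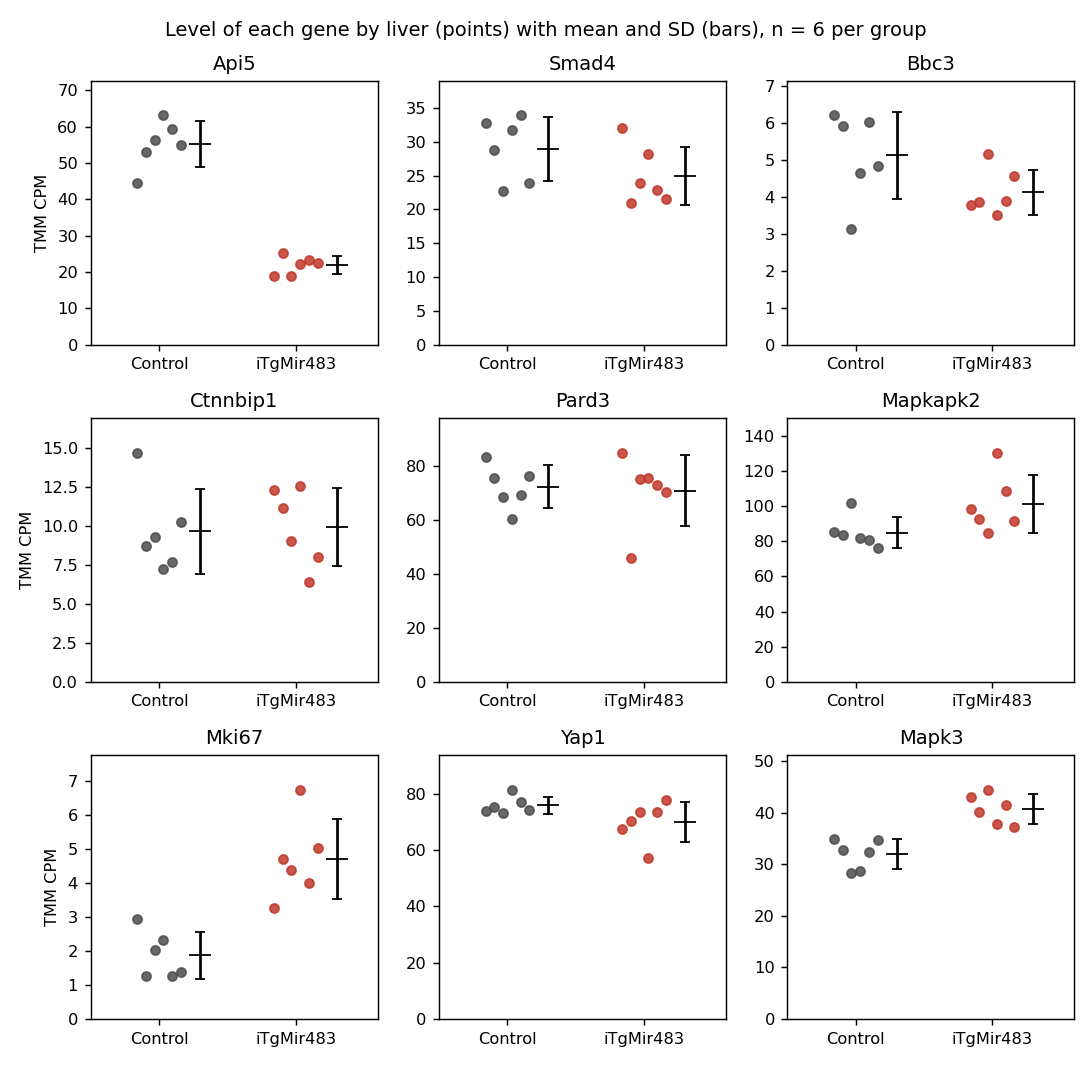
Level of each listed gene in every liver, in TMM-scaled CPM (vertical axes, from 0). Points are livers, grey for Control and red for iTgMir483, and bars give the mean and SD (n = 6 per group). Api5, Mki67 and Mapk3 have groups that do not overlap, while the other 6 genes overlap.

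Api5 protects cells from apoptosis when growth factors are scarce. Its level was between 44.55 and 63.12 CPM in controls (median 55.67) and between 18.95 and 25.34 CPM in iTgMir483 livers (median 22.28). Every iTgMir483 liver was below every control. The means were 55.23 ± 6.32 and 21.86 ± 2.5 CPM (SD, n = 6 each), a 2.53-fold lower level, with a log2 fold change of -1.34 (SE 0.10, 95% interval -1.56 to -1.12). Api5 had the 4th smallest p of all 13205 tested genes. Among the 2134 genes with a 7mer or 8mer match to miR-483-3p, its p was the smallest and its log2 fold change the 11th lowest. The listed genes were chosen with these values known, so such ranks are description only. The gene lies on chromosome 2, 94411682 to 94438136, minus strand. An antisense gene, 2810002D19Rik, overlaps its exons, and its own log2 fold change was -0.28 (edgeR quasi-likelihood adjusted p = 0.385) at 14 to 38 counts per library. The processed copy Api5-ps had 0 counts.

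Ctnnbip1 had the same number of miR-483-3p matches as Api5, and 1 more 7mer. Its level was between 7.22 and 14.68 CPM in controls (median 8.98) and between 6.39 and 12.53 CPM in iTgMir483 livers (median 10.07). The groups overlapped over most of their range. The means were 9.63 ± 2.70 and 9.89 ± 2.49 CPM, and the log2 fold change was 0.04 (SE 0.20, 95% interval -0.38 to 0.46). The interval leaves out a decrease of the size seen in Api5. Its sign turned when any of 4 livers was left out (Control replicates 4 or 5, iTgMir483 replicates 1 or 4), with values of -0.04, -0.02, -0.03 and -0.04. Ctnnbip1 ranked 1210th from the lowest log2 fold change among the 2134 genes with a match.

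**Figure D3:**
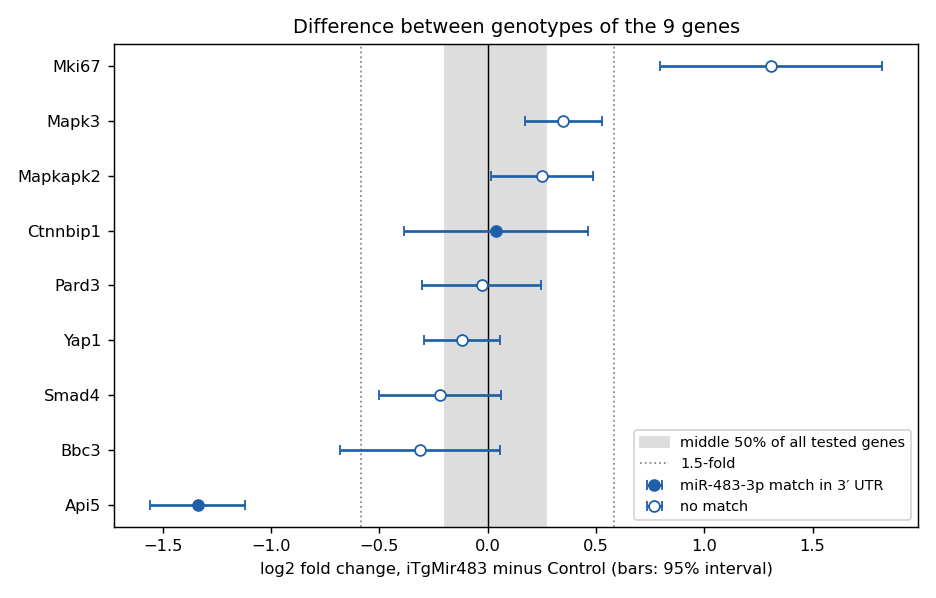
Log2 fold change of each listed gene, iTgMir483 minus Control (horizontal axis), with bars for the 95% interval. Filled points have a miR-483-3p match in the 3′ UTR, the grey band holds the middle 50% of all tested genes, and dotted lines mark a 1.5-fold change. Api5 at -1.34 and Ctnnbip1 at 0.04 are the 2 genes with a match.

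Of the 2134 genes with a 7mer or 8mer match to miR-483-3p in the 3′ UTR, 3.14% were lower and 8.01% higher in iTgMir483 livers, with a median log2 fold change of -0.01. Of the 8348 genes with no match, 2.37% were lower and 8.90% higher, with a median of 0.02. Genes with a match had longer 3′ UTRs, with a median of 2354.5 bases against 828.5, and the part of length in this difference was not tested. In the 416 genes with an 8mer, 3.85% were lower and 9.13% higher. Among 235 genes with a 7mer-m8 and at least 3 matches in all, as in Api5, 3.83% were lower and 11.5% higher, a class set up after the Api5 values were seen. For matches in the coding sequence, 2.05% of 2777 genes were lower and 8.71% higher.

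Igf1 and Gdf3, which the study names as targets, give a comparison. Igf1 encodes the insulin-like growth factor made by hepatocytes under growth hormone, and Gdf3 a ligand of the TGF-beta family. Each has 1 7mer-m8 match in its 3′ UTR.
Igf1 7mer-m8: caacatcgtctttAGGAGTGt
Gdf3 7mer-m8: tcgggactaggctAGGAGTGt
The Igf1 match is at 87930908 to 87930914 on chromosome 10 (plus strand), in 2 of 7 coding transcripts, and that of Gdf3 at 122606284 to 122606290 on chromosome 6 (minus strand). Igf1 was at 399.5 ± 99.7 CPM in controls and 140.7 ± 40.0 CPM in iTgMir483 livers (log2 fold change -1.51, SE 0.20, edgeR adjusted p = 0.000371). No library held more than 2 counts of Gdf3, and a difference was not detectable at this depth.

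Mki67 marks cells in any phase of the division cycle and is scarce in adult liver. It was between 1.27 and 2.95 CPM in controls (median 1.70) and between 3.28 and 6.74 CPM in iTgMir483 livers (median 4.54). All 6 iTgMir483 livers were above all controls, although the counts behind these values were only 15 to 68 and 45 to 92. The means were 1.87 ± 0.69 and 4.69 ± 1.17 CPM, a 2.51-fold higher level, with a log2 fold change of 1.31 (SE 0.24, 95% interval 0.79 to 1.82). The highest Mki67 was in iTgMir483 replicate 4, the liver with the highest summed macrophage markers (1096 CPM), and without that liver the log2 fold change was 1.18.

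Of the 18 proliferation genes tested, 1 was higher, Mcm2, and none was lower at both thresholds, with a median log2 fold change of 0.28. Mcm2, a subunit of the replicative helicase, was at 2.15 ± 0.55 CPM in controls and 4.71 ± 1.51 CPM in iTgMir483 livers (log2 fold change 1.12, SE 0.23, edgeR adjusted p = 0.00485), with no overlap. The number higher was 3 without Control replicate 1, and 2 without Control replicate 3 or iTgMir483 replicates 2 or 5. Macrophage markers rose as well: 5 of 6 (Adgre1, Clec4f, Csf1r, Cd68 and Cd5l) passed both thresholds, and their sum was 270.4 to 392.8 CPM in controls and 416.6 to 1096 CPM in iTgMir483 livers. Both neutrophil genes tested, S100a8 and S100a9, rose (neither was kept by a filter of 10 counts in every library), with sums of 0.62 to 2.30 and 2.04 to 16.2 CPM over the 4 listed neutrophil markers, of which Mpo and Elane were at 0 in at least 1 control. Of 5 bile duct markers 3 rose (Krt7, Epcam and Spp1), or 1 of 3 with a filter of 10 counts in every library. Krt19 and Sox9 were not called (log2 fold change 0.10 and 0.26). The sum of the 5 was 20.9 to 46.1 CPM in controls and 60.7 to 89.1 CPM in iTgMir483 livers, mostly Spp1 (means of 25.6 and 63.6 CPM). The part of these cells in the Mki67 difference was not tested.

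Mapk3 encodes ERK1, an end kinase of the ERK cascade. Mapk3 was between 28.3 and 34.95 CPM in controls (median 32.57) and between 37.23 and 44.45 CPM in iTgMir483 livers (median 40.83). Every iTgMir483 liver was above every control, with means of 31.97 ± 2.88 and 40.69 ± 2.83 CPM. The log2 fold change was 0.35 (SE 0.08, 95% interval 0.17 to 0.53), or 1.27-fold, under the 1.5-fold limit. Mapk3 has no miR-483-3p match in its 3′ UTR, which is 612 bases long.

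Mapkapk2 was between 76.07 and 102.0 CPM in controls (median 82.66) and between 84.51 and 130.5 CPM in iTgMir483 livers (median 95.35). Only 2 iTgMir483 livers were above all controls. The means were 84.85 ± 8.94 and 101.0 ± 16.6 CPM, with a log2 fold change of 0.25 (SE 0.11, 95% interval 0.01 to 0.49) that did not pass the threshold over all genes. Its highest value was again in iTgMir483 replicate 4. The gene whose deviations from the group means were most like those of Mapkapk2 was C1qb, a complement gene of macrophages, with r = 0.887 across 12 libraries and 10554 genes searched. C1qb itself had a log2 fold change of 1.10 (edgeR adjusted p = 0.00163). The part of macrophages in the Mapkapk2 values was not tested.

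In the list of 30 tested genes around the p38-MK2 and ERK cascades, 4 were higher (Mapk11, Mapkapk3, Egr1 and Rps6ka1) and 1 lower (Map2k6), with a median log2 fold change of 0.13. The number higher was 1 without Control replicates 4 or 6 or iTgMir483 replicate 3, and 2 without Control replicate 5, by limma-voom or with no count filter. Map2k6, a kinase that activates p38, was at 7.49 ± 3.71 CPM in controls and 2.28 ± 0.48 CPM in iTgMir483 livers, without overlap. Its log2 fold change was -1.70 (SE 0.30, edgeR adjusted p = 0.00231). Map2k3 of the same list was at 61.66 ± 10.69 and 70.23 ± 11.68 CPM, with overlap (log2 fold change 0.19, edgeR adjusted p = 0.327). Rps6ka1, a kinase activated by ERK, had a log2 fold change of 0.92 (edgeR adjusted p = 0.0130). Mapkapk3, the closest relative of Mapkapk2, was at 3.54 ± 0.62 and 5.37 ± 0.85 CPM (log2 fold change 0.60, edgeR adjusted p = 0.0157), and came under 1.5-fold without Control replicates 4 or 6 or iTgMir483 replicate 3 (0.53, 0.55 and 0.52). Egr1, an immediate early gene downstream of ERK, had a log2 fold change of 1.19 (edgeR adjusted p = 0.0314), and missed the threshold without any of 6 livers (Control replicates 4, 5 or 6, iTgMir483 replicates 2, 3 or 5), with adjusted p from 0.0532 to 0.0692. The p38 gene Mapk14 itself had a log2 fold change of -0.28 (SE 0.12) that did not pass (edgeR adjusted p = 0.112), and without iTgMir483 replicate 6 its adjusted p was 0.0419.

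Yap1 was between 73.2 and 81.38 CPM in controls (median 74.8) and between 57.01 and 77.86 CPM in iTgMir483 livers (median 71.79). The ranges overlapped, with 3 iTgMir483 livers below all controls. The means were 75.84 ± 3.0 and 69.91 ± 7.24 CPM, and the log2 fold change was -0.12 (SE 0.08, 95% interval -0.29 to 0.06). Wwtr1, which encodes TAZ, the relative of Yap1 that also binds TEAD factors, was at 15.15 ± 2.02 and 24.56 ± 2.03 CPM with no overlap (log2 fold change 0.70, SE 0.10, edgeR adjusted p = 0.000688). Its 3′ UTR holds a 7mer-m8 match to miR-483-3p. Per kilobase of exon, the ratio of Yap1 to Wwtr1 was 2.20 to 3.20 in controls and 1.11 to 1.71 in iTgMir483 livers. Of 21 tested genes of the Hippo list, Wwtr1 alone was called, and 2 were higher by DESeq2, with the replicate block, or without Control replicates 1 or 3 or iTgMir483 replicates 1 or 4.

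**Figure D4:**
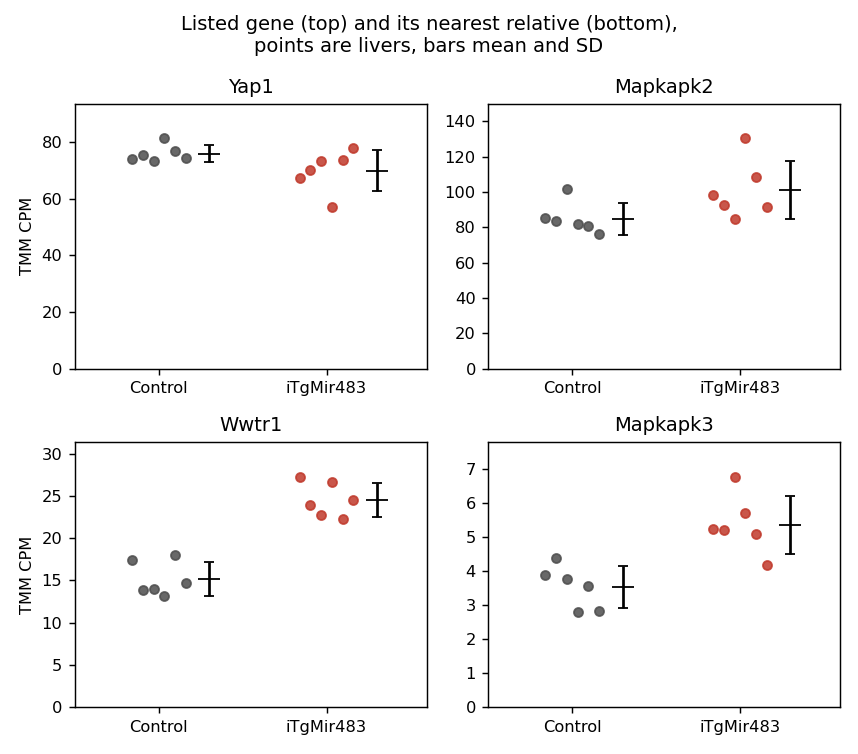
CPM (vertical axes, from 0) of Yap1 and Mapkapk2 in the top row and of their closest relatives Wwtr1 and Mapkapk3 below. Points are livers, and bars give the mean and SD (n = 6 per group). Wwtr1 is higher in every iTgMir483 liver than in every control, while Yap1, Mapkapk2 and Mapkapk3 overlap between groups.

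Smad4 is needed by both TGF-beta and BMP receptors to act on transcription. It was between 22.73 and 33.89 CPM in controls (median 30.27) and between 20.91 and 31.96 CPM in iTgMir483 livers (median 23.43). The ranges overlapped widely. The means were 28.96 ± 4.71 and 24.92 ± 4.30 CPM, with a log2 fold change of -0.22 (SE 0.13, 95% interval -0.50 to 0.06). Its partners Smad2 and Smad3, which carry the TGF-beta signal, had log2 fold changes of 0.19 (edgeR adjusted p = 0.279) and 0.11 (edgeR adjusted p = 0.688), and the latter was -0.01 without iTgMir483 replicate 3.

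Of 26 tested genes of TGF-beta and Smad signalling, 2 were higher, Tgfb1 among them, and 2 lower (Smad9 and Acvr2a), with a median log2 fold change of 0.20. The number higher was 3 without Control replicate 1 or iTgMir483 replicate 4 and 1 by limma-voom, and none was lower without Control replicate 4 or iTgMir483 replicate 4. Tgfb1, the main profibrotic ligand, was at 7.67 ± 1.44 and 14.1 ± 4.2 CPM without overlap (log2 fold change 0.88, SE 0.18, edgeR adjusted p = 0.00550). Acvr2a, an activin receptor, had no overlap (log2 fold change -0.60, edgeR adjusted p = 0.00383) but came under 1.5-fold without Control replicates 2 or 4 or iTgMir483 replicates 3 or 4 (-0.58, -0.56, -0.57 and -0.54). Smad9, a Smad of the BMP branch, had a log2 fold change of -0.89 (edgeR adjusted p = 0.0283) and missed the threshold without Control replicates 1 or 4 or iTgMir483 replicates 4 or 5 (adjusted p from 0.0523 to 0.0561).

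Bbc3 is switched on by p53 and promotes cell death through the mitochondria. It was between 3.14 and 6.21 CPM in controls (median 5.39) and between 3.52 and 5.16 CPM in iTgMir483 livers (median 3.87). All iTgMir483 livers lay inside the control range. The means were 5.13 ± 1.17 and 4.13 ± 0.61 CPM, with a log2 fold change of -0.31 (SE 0.17, 95% interval -0.68 to 0.06). Of 27 tested apoptosis regulators, 1 was higher (Pmaip1) and 2 lower (Bik and Cycs), with a median log2 fold change of 0.21. The number higher was 4 without Control replicate 1, and 2 without Control replicate 5 or any iTgMir483 replicate except 4. Bik, another BH3-only gene, had a log2 fold change of -0.94 (SE 0.23, edgeR adjusted p = 0.0108). Cycs, which encodes cytochrome c, had one of -0.63 (SE 0.16, edgeR adjusted p = 0.0147) and came under 1.5-fold without Control replicate 6 or iTgMir483 replicate 4 (-0.56 and -0.54).

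Pard3 was between 60.18 and 83.26 CPM in controls (median 72.22) and between 45.75 and 84.8 CPM in iTgMir483 livers (median 73.89). Apart from iTgMir483 replicate 2, at 45.75 CPM, the iTgMir483 livers lay at 70.35 CPM or above. The means were 72.08 ± 7.97 and 70.68 ± 13.2 CPM, and the log2 fold change was -0.03 (SE 0.13, 95% interval -0.30 to 0.25). It was 0.07 without iTgMir483 replicate 2 and 0.02 without Control replicate 1. No gene of the 19 in the polarity list passed both thresholds in edgeR's test. The related Pard3b had a log2 fold change of 0.56 (edgeR adjusted p = 0.0443), just under 1.5-fold, and passed both thresholds without Control replicate 1 or iTgMir483 replicate 1 (0.71 and 0.60), while without each of the other 10 livers its adjusted p was over 0.05. By limma-voom it passed both (0.61, adjusted p = 0.0265). Pard6b, a partner of Pard3 in the Par complex, had one of 0.27 (edgeR adjusted p = 0.325), and 0.40 at an adjusted p of 0.0411 without iTgMir483 replicate 4.

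Beside Ctnnbip1, 25 genes of beta-catenin signalling were tested. Ccnd1 was higher, Glul and Dkk3 were lower (1 lower without Control replicate 5 or iTgMir483 replicates 2 or 4), and the median log2 fold change was -0.02. Glul, the pericentral glutamine synthetase and a beta-catenin target, was at 1075 ± 110 and 700.5 ± 156.1 CPM with no overlap (log2 fold change -0.62, SE 0.14, edgeR adjusted p = 0.00974). It came under 1.5-fold without Control replicate 5 or iTgMir483 replicates 2 or 4 (-0.58, -0.56 and -0.57). Ccnd1, which encodes cyclin D1, had a log2 fold change of 1.48 (edgeR adjusted p = 0.0223), and its adjusted p was 0.0545 without iTgMir483 replicate 3. Beta-catenin itself, Ctnnb1, was at 195.0 ± 14.0 and 159.4 ± 21.1 CPM (log2 fold change -0.29, edgeR adjusted p = 0.0625), with an adjusted p of 0.0427 without iTgMir483 replicate 3.

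Hepatocyte markers bear on every value from whole liver. Of 6 markers only Cps1 passed both thresholds, as lower, and the median log2 fold change of the 6 was -0.45. The sum of the 6 was 116500 to 164800 CPM in controls and 55540 to 127900 CPM in iTgMir483 livers. Most of it was Alb, at means of 111900 and 76070 CPM (log2 fold change -0.56, edgeR adjusted p = 0.160). None of 6 stellate, 5 endothelial or 3 erythroid markers tested was called, but without Control replicate 1 there was 1 stellate and 1 erythroid marker higher, and with the replicate block 1 erythroid marker. Of the 3 lymphocyte markers tested, Ptprc was higher, and none was without iTgMir483 replicate 4, the liver with the highest summed lymphocyte markers (33.2 CPM). Their part in the differences above was not tested.

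In controls, per kilobase of exon, Mapkapk2 had the highest level of the 9 genes (27.9 CPM per kilobase), followed by Mapk3 (14.2), Api5 (12.2), Yap1 (8.19), Smad4 (7.80), Pard3 (4.97), Ctnnbip1 (3.45), Bbc3 (2.42) and Mki67 (0.186). The ranges over livers overlapped between the neighbours Mapk3 and Api5, Yap1 and Smad4, Pard3 and Ctnnbip1, and Ctnnbip1 and Bbc3. Mapkapk2 stood at the 89.9th percentile of tested genes and Mki67 at the 3.99th. The list therefore spans almost the whole range of levels, and Mki67 had the fewest counts behind its values.

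Among the 6 iTgMir483 livers, the level of each gene was set against that of Mir483, a relation the choice of the list did not use. Mir483 was at 23.3 to 27.15 CPM in replicates 1, 3 and 4 and at 43.67 to 54.31 CPM in replicates 2, 5 and 6, so a coefficient over all 6 mainly contrasts these sets of 3 livers, and within a set no relation could be tested. None of 9 genes passed after Benjamini-Hochberg adjustment (exact permutation over 720 pairings, two-sided, lowest adjusted p = 0.188). For Api5, r was 0.75 (exact permutation p = 0.119, adjusted p = 0.331) and rho was 0.771 (exact permutation p = 0.103). Without the 2 livers farthest from the median Mir483 level (replicates 2 and 4), r was 0.962 (exact permutation, adjusted p = 0.438). That left only replicates 1 and 3 of the low set and 5 and 6 of the high set. With so few livers, the possible pairings are too few for any listed gene alone to pass the adjustment. The adjusted p without these 2 livers therefore decide nothing, here or below.

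Smad4 and Pard3 had the most negative coefficients. For Smad4, r was -0.816 (exact permutation p = 0.0514, adjusted p = 0.231) and rho was -0.829 (exact permutation p = 0.0583). Without these 2 livers, r was -0.711 (exact permutation, adjusted p = 0.438). For Pard3, r was -0.715 (exact permutation p = 0.0208, adjusted p = 0.188) and rho was -0.829 (exact permutation p = 0.0583). Without the same 2 livers, r was -0.767 (exact permutation, adjusted p = 0.438). The other 6 genes had r from -0.491 (Ctnnbip1) to 0.639 (Yap1), with exact permutation p of 0.147 or more. Of the iTgMir483 livers, replicates 1 and 4 had the highest Smad4 (31.96 and 28.21 CPM). They also had the lowest summed hepatocyte markers (60630 and 55540 CPM), and both are in the set with low Mir483. The part of tissue composition in these coefficients was not tested. For rho, the smallest p that 720 pairings can give is 0.00278.

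**Figure D5:**
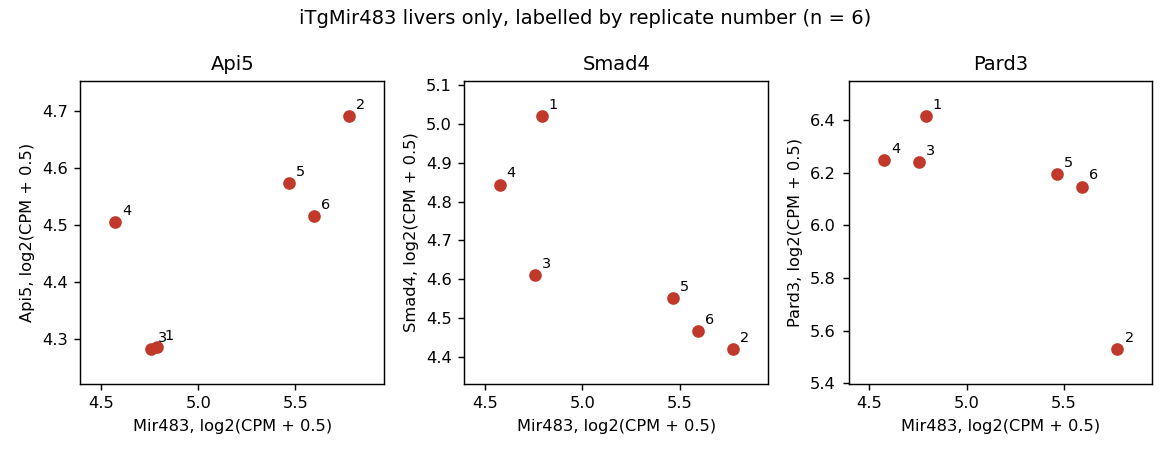
Level of Api5, Smad4 and Pard3 (vertical axes) against Mir483 (horizontal axes) in the 6 iTgMir483 livers, as log2(CPM + 0.5), each point labelled by its replicate number. The livers fall into sets of 3 along the Mir483 axis, Smad4 and Pard3 are lowest in replicate 2, and Api5 is highest there.

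The genes whose deviations from the group means lay closest to those of the listed genes were Dock4 for Smad4 (r = 0.946), Il17rc for Ctnnbip1 (0.943), Pxn for Pard3 (0.933), Mitd1 for Yap1 (0.926), Tmed5 for Api5 (0.921), Gm20319 for Mapk3 (0.878), Sp1 for Bbc3 (0.872) and Katna1 for Mki67 (0.853). Each was the highest of 10554 genes, those averaging 50 counts or more, over the same 12 libraries, so the coefficients describe these libraries only. Pxn, which encodes the focal adhesion protein paxillin, had a log2 fold change of 0.29 (edgeR adjusted p = 0.0309), and the other 7 named here did not pass an adjusted p of 0.05.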

How the data were processed

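Raw read counts per gene were deposited by the authors, who extracted total RNA from liver, made stranded poly(A) libraries, aligned paired reads to GRCm38 with STAR and counted Ensembl genes. The strand setting of the counting is not given in the sources used here, so counts of overlapping antisense genes are uncertain, and reads carry no molecular identifiers. Groups and replicate numbers came from the sample titles. The table held 55401 genes, of which 55141 had a symbol in GENCODE M21. Library totals were 12244123 to 30431286 counts, and precision is lowest for genes with few counts. Each pair of libraries within a group differed beyond sampling noise (lowest chi-square per gene 15.9). Control replicate 1 stood apart from the other controls, at 85.7 to 101.0, where the other control pairs had 22.3 to 38.5. Pairs with iTgMir483 replicates 1 or 4 had 79.9 to 155.9, and the other iTgMir483 pairs 15.9 to 46.8. The cause was not tested.

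In R 4.3.3, edgeR 4.0.16 (with limma 3.58.1) was used to filter the counts (filterByExpr), scale them by trimmed means of M-values (TMM) and fit the quasi-likelihood model, with genotype as its single term. P-values were adjusted over 13205 genes by Benjamini-Hochberg, and a gene was called below 0.05 with more than a 1.5-fold change. The log2 fold change over the root of F gave its standard error (SE). The test was checked on simulated counts. As alternatives, other count filters, RLE size factors, a test against a fold of 1.5, DESeq2 1.42.0, limma-voom, a replicate block and leaving out each library were tried. Level relations within iTgMir483 livers used log2(CPM + 0.5) and exact permutation.

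Mature microRNAs came from RefSeq (GRCm38.p6). UTRs and coding sequences came from GENCODE M21 (GRCm38), whose release differs from that of the authors. The Smad4 sequence and some genes that meet the naming rule below are not reported here. The listed genes and pathway lists were chosen with earlier results of these data known. Beside the 9 genes, the text names Mir483, Igf1 and Gdf3, called genes of each pathway list with a mean count of at least 50 (up to 5 by smallest p), nearest relatives or partners of the listed genes, the gene of most similar deviations, and markers. Mapk11, Pmaip1 and Dkk3, with lower counts, are named only to complete counts of called genes, as is 2810002D19Rik for its overlap, and were chosen after their values were seen. Map2k3 is named beside Map2k6 and was likewise chosen afterwards.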

Additional observations from a re-analysis of the deposited data

Results flagged for a closer look

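Pard3 in iTgMir483 replicate 2 stood apart from the other livers of its group at 45.75 CPM, where the other 5 lay between 70.35 and 84.8 CPM, a gap of 0.63 of the group's range. Mapkapk2 in Control replicate 3 stood apart at 102.0 CPM, where the other 5 controls lay between 76.07 and 85.01 CPM, a gap of 0.655 of the range. These were 2 of 21 gene and group combinations examined, and chance gives about 1 in 20. No cause was tested.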

How the results depend on the processing

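Across alternatives, Api5 and Mki67 were the called genes of the list in every setting except a test against a fold of 1.5, where 226 genes and 1 of the 9 (Api5) were called. With no fold threshold, 2457 genes and 3 of the 9 (Mapk3 added) passed. Leaving out each library in turn called 1190 to 1653 genes, with Api5 at -1.39 to -1.30, Mki67 at 1.18 to 1.47 and Mapk3 at 0.32 to 0.37. The log2 fold change of Ctnnbip1 ranged from -0.04 to 0.20 (-0.0375, -0.0166, -0.033 and -0.0368 where it turned negative) and that of Pard3 from -0.0875 to 0.0703 (0.016 without Control replicate 1). The sign turned for Smad3 without iTgMir483 replicate 3 (-0.0053). The cause of these turns was not tested. Without the 2 livers farthest in Mir483 level, r turned to -0.165 for Bbc3, 0.427 for Mapkapk2 and 0.586 for Mki67 (exact permutation, adjusted p from 0.643 to 0.875). The alternatives for pathway genes were chosen after seeing the data, and Ccnd1 (1.26, adjusted p = 0.0621) and Egr1 (1.11, adjusted p = 0.0589) were not called by limma-voom, while Pard3b was (0.61).

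Replicate numbers did not pair the samples as a whole: same-numbered livers correlated at 0.03 to 0.47, under 0.1 for 4 of 6. Of the controls, 2 of 6 were most like the iTgMir483 liver of their own number. These were replicate 1 (0.47) and replicate 5 (0.18), so the replicate 1 livers shared part of their deviation. A fit with a replicate block called 1530 genes, among them Api5 and Mki67 of the list, but did not call Smad9 (adjusted p = 0.0607). RLE size factors shifted the median log2 fold change of all genes from 0.01 to -0.01 and called 1469 genes. Depth limits Mki67 (at least 15 counts) and Bbc3 most.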
